A study of Mus musculus with 9 samples.

Results

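The receptor genes of the IL-1 and IL-18 family described here are Il1rl1, Il1rap, Il1r1, Il1r2, Il18r1 and Il18rap, 6 of the 23992 gene symbols in the deposited tables. They were taken by symbol, and for a gene with several transcript rows the row with the most reads summed over the 9 libraries stood for the gene. Of the 6 genes, 5 passed the filter on low values (3 or more libraries with an RPKM, reads normalised to transcript length and to library size, of 1 or higher), and Il1r1 did not.

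Receptors of this family work as pairs, in which a ligand-binding chain is joined by an accessory chain and both carry an intracellular TIR domain that recruits the adaptor MyD88 and IRAK kinases, leading to NF-kappaB and MAP kinase activity. Il1rl1 encodes ST2, the receptor for the alarmin IL-33, and Il1rap encodes the accessory chain that ST2 shares with the IL-1 receptor Il1r1. Il18r1 and Il18rap encode the binding and accessory chains of the IL-18 receptor, and Il1r2 encodes a decoy receptor for IL-1 without a TIR domain. In regulatory T cells (Tregs), the Foxp3-expressing T cells that restrain immune responses, ST2 is best known from cells resident in tissues, where IL-33 supports their expansion and repair functions.

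RNA was sequenced from BALB/c mouse Tregs marked by a Foxp3 GFP reporter and made to carry, by transduction, an orthogonal beta chain of the IL-2 receptor (oIL-2Rβ) tagged with human EGFR, the source being given as spleens. All 9 libraries, the controls included, came from cells that carry this chain, that had spent 48 h in culture with human IL-2 at 1000 IU/mL and CD3/CD28 beads, that were isolated magnetically through the tag and that were then kept overnight without IL-2. For the last 4 h, 3 samples received no IL-2, 3 received wild-type (WT) IL-2 at 20000 IU/mL, and 3 received ortho IL-2, the cytokine engineered for the orthogonal chain, at 2000000 IU/mL, so the cytokines were not given at matched doses. A growth protocol in the labels describes a different assay, a co-culture with naive T cells, and the labels do not state if replicates were separate animals or cultures, so the p-values reflect only sample-to-sample spread, possibly technical.

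The libraries held 16581624 to 30213895 reads in genes without IL-2, 31912919 to 38797874 with WT IL-2 and 21695631 to 58182835 with ortho IL-2. All 9 T cell and Treg markers found in the tables passed the filter, Foxp3 among them at 80.1 ± 4.95 RPKM without IL-2 (SD, n = 3). Among cell types that also carry these receptors, 1 of 10 mast cell and basophil markers (Kit), 1 of 10 myeloid markers (Itgam), 1 of 9 innate lymphoid and NK cell markers (Prf1) and 1 of 7 stromal and endothelial markers (Pecam1) passed it, while the mast cell genes Fcer1a, Tpsb2 and Tpsab1 had 0 reads in all libraries. The summed level of the mast cell and basophil list was 4.99 to 5.54 RPKM without IL-2, 8.09 to 9.12 with WT IL-2 and 8.39 to 8.63 with ortho IL-2. Most of this sum was Kit (group means 4.62, 8.06 and 7.97 RPKM), while Ms4a2 of the same list was lower with each cytokine (0.49, 0.22 and 0.29 RPKM). The summed level of the innate lymphoid and NK list was 2.09 to 2.13, 3.55 to 4.06 and 3.76 to 4.67 RPKM. Prf1 held most of that change (group means 0.83, 2.27 and 2.58 RPKM). The myeloid list summed to 2.32 to 2.72, 2.22 to 2.33 and 2.23 to 2.50 RPKM. The stromal and endothelial list summed to 46.8 to 52.8, 43.7 to 47.9 and 44.3 to 52.4 RPKM, nearly all of it Pecam1 (group means 50.37, 45.3 and 47.25 RPKM). Of the same list, Cdh5 had 0 to 9, Kdr 1 to 8, Col3a1 0 to 6, Pdgfrb 4 to 21, Col1a1 38 to 199 and Col1a2 7 to 165 reads per library. Of 2 CD8 T cell markers, 1 passed the filter (Cd8b1), and the list summed to 2.655 to 3.46, 3.87 to 4.70 and 4.37 to 4.66 RPKM. The part of these cell types in the receptor values was not tested. Reads outside the transcripts taken made up 40.5% ± 2.43 of the number by which RPKM was divided in the no IL-2 group, 31.7% ± 2.96 in the WT IL-2 group and 29.4% ± 3.64 in the ortho IL-2 group (SD, n = 3 each), so this share moved with the groups. They are called reads outside genes below, although reads in introns or in other transcript rows of genes can be among them.

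Of these receptor genes, 5 lie on the plus strand of chromosome 1 within 477.6 kb (GRCm38), and the order there is Il1r2 (40074079 to 40125231), Il1r1 (40225080 to 40317257), Il1rl1 (40429570 to 40465415), Il18r1 (40465552 to 40500854) and Il18rap (40515362 to 40551705). Il1rl1 ends 136 bases before Il18r1 starts, and 14507 bases separate Il18r1 from Il18rap. Il1rap is on the plus strand of chromosome 16 (26581704 to 26730117). In the annotation the spans of Il1r2, Il1r1 and Il1rap, introns included, each overlap at least 1 predicted gene, while those of Il1rl1, Il18r1 and Il18rap overlap none. Whether reads of the predicted genes were counted with those of the receptor genes was not tested.

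For Il1rl1, Il1rap and Il18r1 the tables list a long row with the full receptor and a short row. Il1rap and Il18r1 also have other rows. The short row is for a transcript that reads on past the end of an exon where the long form splices, into a stop codon. These sequences are shown because they are where the long form and the shorter product part. Each shows 30 shared bases, followed in the short form by the intron bases up to the stop codon, in capitals, and in the long form by 30 bases of the next exon (GENCODE M21 transcripts, GRCm38).
Il1rl1 short form, chr1:40446646-40446704: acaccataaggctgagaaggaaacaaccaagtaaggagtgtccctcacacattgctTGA
Il1rl1 long form: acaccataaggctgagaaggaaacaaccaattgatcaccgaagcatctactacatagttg
Il1rap short form, chr16:26701207-26701268: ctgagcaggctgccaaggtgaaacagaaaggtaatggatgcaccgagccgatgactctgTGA
Il1rap long form: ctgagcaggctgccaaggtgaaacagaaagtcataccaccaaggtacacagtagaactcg
Il18r1 short form, chr1:40491187-40491233: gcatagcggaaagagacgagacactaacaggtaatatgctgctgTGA
Il18r1 long form: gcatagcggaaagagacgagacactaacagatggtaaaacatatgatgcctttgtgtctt
The coding sequence holds 567 codons in the long and 337 in the short form of Il1rl1, 570 and 360 in those of Il1rap, and 537 and 372 in those of Il18r1. The short form of Il1rl1 is the soluble ST2 that binds IL-33 without signalling, and that of Il1rap is a soluble accessory chain.

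Upstream bases of 3 start sites (RefSeq, GRCm38.p6) are shown because these adjacent genes gave different values in the comparisons below. Il1rl1 has 2 start sites, of which only the downstream one is shown. Which start sites these cells used was not tested. Capitals mark the motif GATAA, bound by GATA factors, on either strand, and TTCNNNGAA, the STAT motif. Bases within an annotated exon are left out, so fewer are shown for Il18r1 and the match farther from its start is not.
Il1rl1, downstream start, chr1:40439379-40439626: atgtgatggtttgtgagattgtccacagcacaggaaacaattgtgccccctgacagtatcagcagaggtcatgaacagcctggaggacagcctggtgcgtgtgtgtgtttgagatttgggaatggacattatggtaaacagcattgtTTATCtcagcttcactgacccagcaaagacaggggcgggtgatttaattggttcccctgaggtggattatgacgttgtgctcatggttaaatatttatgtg
Il18r1, chr1:40465811-40465969: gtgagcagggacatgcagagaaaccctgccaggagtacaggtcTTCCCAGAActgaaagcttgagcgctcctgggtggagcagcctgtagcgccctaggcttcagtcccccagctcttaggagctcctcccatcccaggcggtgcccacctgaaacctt
Il18rap, chr1:40515112-40515361: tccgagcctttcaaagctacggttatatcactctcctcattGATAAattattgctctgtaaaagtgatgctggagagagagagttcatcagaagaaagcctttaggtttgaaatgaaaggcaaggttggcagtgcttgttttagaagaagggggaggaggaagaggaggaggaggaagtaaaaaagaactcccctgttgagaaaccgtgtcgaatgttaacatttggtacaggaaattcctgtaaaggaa
Windows of 300 bases, from 250 before to 50 after each start, were searched on both strands for TTCNNNGAA, GATAA and the AP-1 motif TGANTCA, which do not overlap one another in the windows of the receptor genes. Il18r1 has 3 start sites in the table, of which the most downstream is shown, and the windows of the other two held none of the motifs. TTCNNNGAA was found 219 and 152 bases before the start shown and 111 bases before that of Il1r2. GATAA was found 103 bases before the downstream start of Il1rl1, 216 and 79 bases before its upstream start, 209 bases before that of Il18rap and 86 bases before that of Il1r2. The windows of Il1r1 and Il1rap held none of the motifs, and TGANTCA was in no window of the 6 genes. Over all 32851 such windows, 8.30% held TTCNNNGAA, 25.4% GATAA and 7.81% TGANTCA, so a match describes the letters only.

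The first question was how abundant each chain was in Tregs deprived of IL-2 and whether this order held under stimulation. Il18r1 was the most abundant, at 71.6, 73.0 and 80.8 RPKM without IL-2, a level above that of 95.8% of tested genes. Il1rl1 followed at 23.2, 24.1 and 24.5 RPKM, above 81.6% of tested genes. Il18rap lay near the median of tested genes (7.92 RPKM), at 6.85, 7.46 and 7.94 RPKM. The binding chains of the IL-33 and IL-18 receptors thus stood above their accessory chains in every library.

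Il1rap was low, at 1.68, 1.81 and 1.79 RPKM without IL-2, above 12.4% of tested genes. The decoy gene Il1r2 was lower still, at 1.37, 1.33 and 1.47 RPKM. Il1r1, the signalling IL-1 receptor, had 10 to 22 reads per library over all 9 libraries, at 0.0703, 0.0471 and 0.0762 RPKM without IL-2, 0.0517, 0.0616 and 0.0636 with WT IL-2 and 0.0818, 0.0744 and 0.0531 with ortho IL-2. The groups overlapped for Il1r1, and a difference between them was not detectable at this depth. In a fit without the filter, its log2 fold change was -0.28 (SE 0.388) with WT IL-2 and -0.10 (SE 0.383) with ortho IL-2 (edgeR adjusted p = 0.632 and 0.877).

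The order Il18r1, Il1rl1, Il18rap, Il1rap, Il1r2, Il1r1 was the same in all 3 groups, and no neighbours in it overlapped in their ranges within a group. The closest neighbours without IL-2 were Il1rap and Il1r2, with mean RPKM 1.27 times apart. Il1rl1 stood 3.23 times above Il18rap without IL-2, 1.69 times with WT IL-2 and 1.74 times with ortho IL-2.

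**Figure D1:**
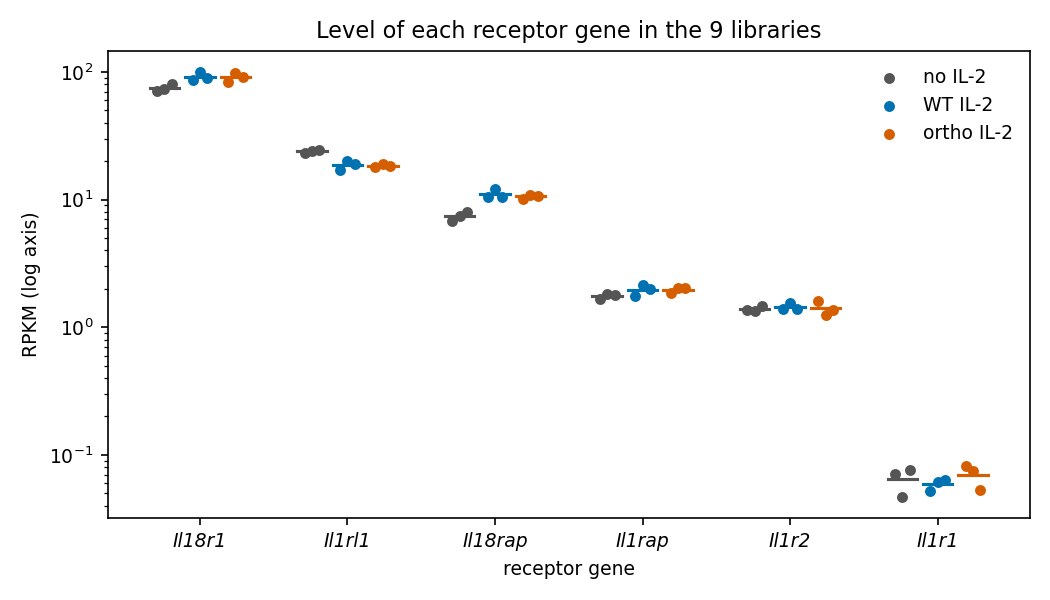
RPKM on a log axis of the 6 receptor genes (horizontal axis) in each of the 9 libraries, coloured by group, with a line at each group's mean over 3 libraries. The order from Il18r1 (75.1 RPKM without IL-2) to Il1r1 (0.0645) is the same in every group, and in RPKM the stimulated libraries lie below the others for Il1rl1 and above them for Il18rap and Il18r1.

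The second question was what IL-2 did to the IL-33 receptor. Levels between libraries were compared as CPM, depth-normalised reads scaled by TMM, a method that sets the bulk of genes equal between libraries. Il1rl1 was at 211, 203 and 207 CPM without IL-2, at 123, 145 and 150 CPM with WT IL-2 and at 135, 138 and 122 CPM with ortho IL-2. All 6 stimulated libraries lay below all 3 libraries without IL-2, and the stimulated groups overlapped each other. Il1rl1 fell by 0.57 on the log2 scale with WT IL-2 (SE 0.08, 95% interval -0.74 to -0.40, edgeR adjusted p = 0.000193), to 0.673 of its level. With ortho IL-2 it fell by 0.66 (SE 0.08, 95% interval -0.83 to -0.48, edgeR adjusted p = 7.32e-05), to 0.635 of its level. These comparisons share the libraries without IL-2. Of tested genes, 7.20% had a lower log2 fold change than Il1rl1 under WT IL-2 and 6.61% under ortho IL-2. Libraries were also scaled by the RPKM divisor in place of TMM. It is the number that turns each library's reads into RPKM, and it also counts reads outside the transcripts taken. With this scaling Il1rl1 fell by 0.36 and 0.38. With an adjustment for the share of reads outside genes, the ortho IL-2 value was -0.46 and no longer passed the test (adjusted p = 0.0711). The WT IL-2 value was then -0.41 and passed narrowly (edgeR adjusted p = 0.0439). In bulk RNA, fewer cells with a transcript and less transcript per cell cannot be told apart.

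Il1rap, the accessory chain of ST2, was at 13.8, 13.8 and 13.7 CPM without IL-2, at 11.5, 13.9 and 14.3 CPM with WT IL-2 and at 12.8, 13.3 and 12.1 CPM with ortho IL-2. The WT IL-2 libraries lay on both sides of the others, and the ortho IL-2 libraries lay just below those without IL-2. The log2 fold change was -0.06 (SE 0.09, edgeR adjusted p = 0.641) with WT IL-2 and -0.11 (SE 0.09, edgeR adjusted p = 0.322) with ortho IL-2, and both were above 0, and not called, on the RPKM divisor. Within each library, where scaling cancels, the RPKM ratio of Il1rl1 to Il1rap was 13.8, 13.3 and 13.7 without IL-2, 9.68, 9.38 and 9.48 with WT IL-2 and 9.57, 9.36 and 9.03 with ortho IL-2. The ratio was lower in all 6 stimulated libraries than in any without IL-2, a pair chosen after its values were seen and so given without a test.

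Il18rap, the accessory chain of the IL-18 receptor, moved the other way. It was at 30.5, 30.7 and 32.9 CPM without IL-2, at 37.5, 42.7 and 40.8 CPM with WT IL-2 and at 37.7, 38.3 and 35.1 CPM with ortho IL-2. All 6 stimulated libraries lay above all 3 without IL-2. Il18rap rose 1.29-fold with WT IL-2 (log2 fold change 0.36, SE 0.07, 95% interval 0.22 to 0.51, edgeR adjusted p = 0.0013) and 1.18-fold with ortho IL-2 (0.24, SE 0.07, 95% interval 0.09 to 0.39, edgeR adjusted p = 0.0117). With that adjustment for reads outside genes, the ortho IL-2 value was 0.27 and did not pass the test (adjusted p = 0.261). The WT IL-2 value was then 0.39 and passed narrowly (edgeR adjusted p = 0.0496). On the RPKM divisor the log2 fold changes of Il18rap were 0.58 and 0.52.

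Il18r1, its binding partner, was at 535, 503 and 561 CPM without IL-2, at 515, 595 and 583 CPM with WT IL-2 and at 518, 578 and 502 CPM with ortho IL-2. In CPM the 3 groups overlapped, while in the deposited RPKM all 6 stimulated libraries (83.6 to 100.1 RPKM) lay above the 3 without IL-2 (71.6 to 80.8 RPKM). The log2 fold change was 0.08 (SE 0.07, 95% interval -0.08 to 0.25, edgeR adjusted p = 0.377) with WT IL-2 and 0.00 (-0.0012, SE 0.07, edgeR adjusted p = 0.99) with ortho IL-2. This depends on the scaling: Il18r1 was called higher on the RPKM divisor, at 0.30 and 0.27, and with GC offsets, which remove each library's trend with the GC content of genes, at 0.16 and 0.14. The RPKM ratio of Il18r1 to Il18rap was 10.5, 9.78 and 10.2 without IL-2, 8.19, 8.31 and 8.53 with WT IL-2 and 8.20, 9.01 and 8.53 with ortho IL-2. In both stimulated groups this ratio lay below that of every library without IL-2. The ratio of Il1rl1 to Il18r1, neighbours on the chromosome, went from 0.324, 0.330 and 0.303 without IL-2 to 0.196, 0.199 and 0.212 with WT IL-2 and 0.214, 0.196 and 0.199 with ortho IL-2, again without overlap and as a description only.

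The decoy gene Il1r2, with 52 to 144 reads per library, was at 3.31, 2.97 and 3.30 CPM without IL-2, at 2.67, 2.97 and 2.89 CPM with WT IL-2 and at 3.22, 2.41 and 2.42 CPM with ortho IL-2. Its ortho IL-2 replicate 1 lay within the range of the libraries without IL-2, WT IL-2 replicate 2 lay at the lower end of that range to within rounding, and the other stimulated libraries lay lower. The log2 fold change was -0.17 (SE 0.14, edgeR adjusted p = 0.357) with WT IL-2 and -0.24 (SE 0.14, edgeR adjusted p = 0.171) with ortho IL-2, both above 0 and not called on the RPKM divisor. Without ortho IL-2 replicate 1, the ortho IL-2 value was -0.40 and passed the test (adjusted p = 0.0384).

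**Figure D2:**
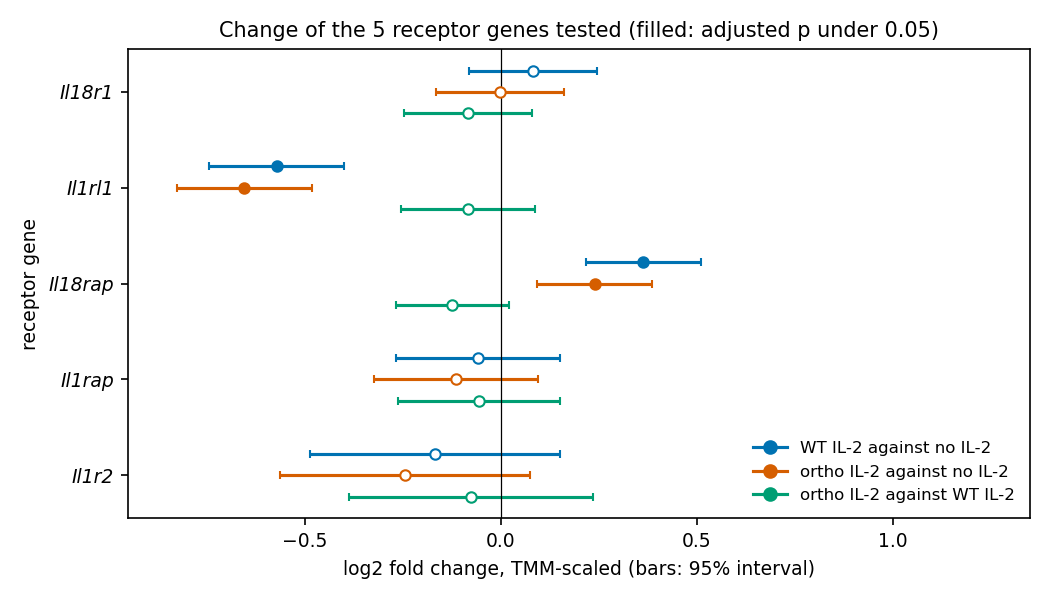
Log2 fold change, TMM-scaled (horizontal axis), of the 5 tested receptor genes (vertical axis) in each comparison, with 95% intervals as bars and filled points where the edgeR adjusted p is under 0.05. Il1rl1 lies below 0 and Il18rap above 0 against no IL-2 (-0.57 and 0.36 with WT IL-2), and all intervals between ortho and WT IL-2 span 0.

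Among the 5 tested receptor genes, 1 was called higher and 1 lower with each cytokine. Over all tested genes 47.9% were called with WT IL-2 (25% higher and 22.9% lower) and 56% with ortho IL-2 (28.5% higher and 27.4% lower), so the share of receptor genes called, 2 of 5, was not above the background. The groups did not overlap for Il1rl1, Il18rap and Il1r2 with WT IL-2 and for Il1rl1, Il18rap and Il1rap with ortho IL-2, against 58.8% and 66.1% of all tested genes. When the RPKM divisor replaced TMM, the median tested gene moved by 0.22 and 0.29 on the log2 scale with WT and ortho IL-2, and 83.8% and 85.8% of called genes were higher, against 52.2% and 51% with TMM.

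Ortho IL-2 and WT IL-2 were compared at their unmatched doses. No receptor gene passed the test, and the log2 difference (ortho minus WT) was -0.08 for Il1rl1 (95% interval -0.25 to 0.09), -0.12 for Il18rap (-0.27 to 0.02), -0.08 for Il18r1 (-0.25 to 0.08), -0.06 for Il1rap (-0.26 to 0.15) and -0.08 for Il1r2 (-0.39 to 0.24). All adjusted p-values of edgeR were 0.909 or above, and the groups overlapped for all 5 genes, against 4.65% of tested genes without overlap. These intervals leave room for a difference in Il1rl1 down to 0.838 times the WT level. Over all tested genes 0% were called by edgeR, 0 also by DESeq2 and limma, and 149 had an unadjusted p under 0.05.

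The long and short transcript rows share exons, and their reads are not independent. The short Il1rl1 row was at 13.3, 14.5 and 15.3 RPKM without IL-2, 10.1, 12.2 and 11.3 with WT IL-2 and 10.3, 11.7 and 10.4 with ortho IL-2. All 6 stimulated libraries lay below those without IL-2. Tested in place of the long row, it gave log2 fold changes of -0.57 and -0.69 (edgeR adjusted p = 0.000578 and 0.000158). Its RPKM was 60.1% ± 2.54 of the long row's without IL-2, 60.0% ± 1.12 for WT IL-2 and 58.5% ± 2.21 for ortho IL-2 (SD, n = 3), and these ranges overlapped. The long row held 1902 to 4794 more reads per library than the short row of Il1rl1.

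For Il18r1 the short row was at 79.2% ± 2.52, 78.0% ± 0.77 and 76.8% ± 1.79 of the long row's RPKM, and for Il1rap at 71.6% ± 5.33, 77.3% ± 11.6 and 81.4% ± 7.29, in the order no IL-2, WT IL-2, ortho IL-2 (SD, n = 3 per group). The ranges of the groups overlapped for both genes. These short rows gave 0.06 and -0.05 for Il18r1 (edgeR adjusted p = 0.58 and 0.641) and 0.04 and 0.08 for Il1rap (0.74 and 0.509). The shares leave out the other rows of both genes. Those of Il1rap, equal in reads, were at 0.65 and 0.61 RPKM without IL-2, and all stimulated libraries lay higher in RPKM. They gave 0.06 and 0.11 (edgeR adjusted p = 0.661 and 0.332), and the other Il18r1 row gave 0.06 and -0.04 (0.572 and 0.696).

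**Figure D3:**
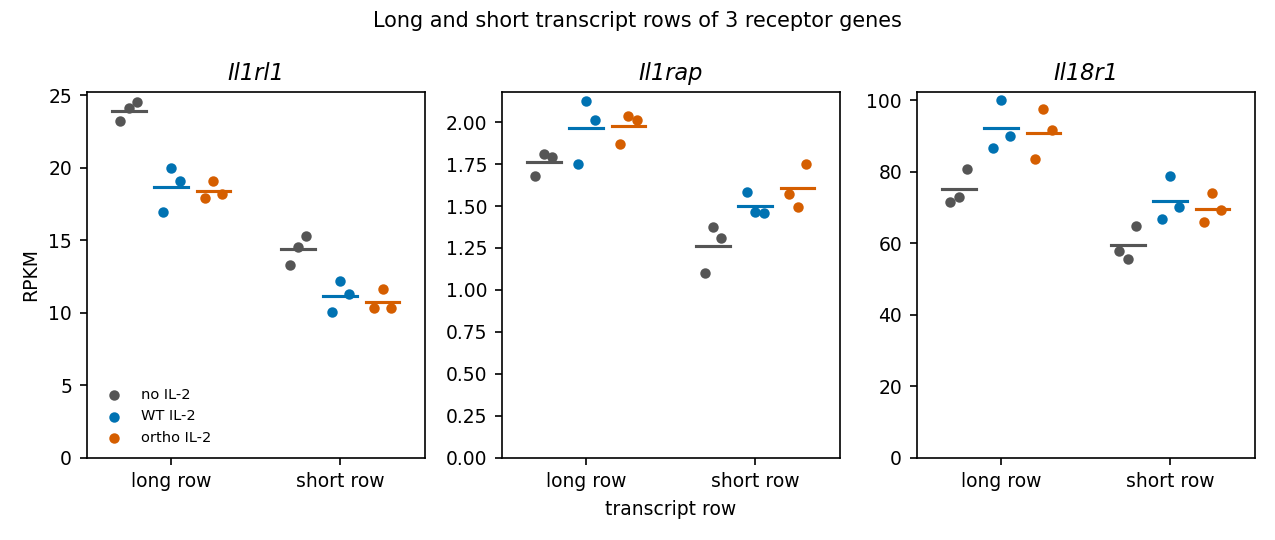
RPKM (vertical axis, from 0) of the long and short transcript rows (horizontal axis) of Il1rl1, Il1rap and Il18r1 in each of the 9 libraries, coloured by group, with a line at each group's mean. Both rows of Il1rl1 are lower in the stimulated libraries (long row mean 23.9 RPKM without IL-2, 18.7 under WT IL-2 and 18.4 under ortho IL-2).

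Around the cluster, Map4k4, a kinase gene upstream of Il1r2, fell by 0.59 with WT IL-2 and by 0.60 with ortho IL-2 (edgeR adjusted p = 1.12e-06 and 9.89e-07), or by 0.37 and 0.32 on the RPKM divisor. Of the 13 genes listed for this neighbourhood, 5 were tested, with 1 higher and 2 lower in each comparison. All tested genes of this list except Map4k4 are receptor genes already described, so the count mostly repeats their calls. The share called was 60% in each comparison, against 47.9% and 56% of all tested genes. The untested genes of the list, among them the IL-36 receptor gene Il1rl2 at 11 to 37 reads per library, were too low. Il1rl1, Il18r1 and Il18rap, which follow one another without another gene of that list between them, thus gave a fall, no call and a rise.

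**Figure D4:**
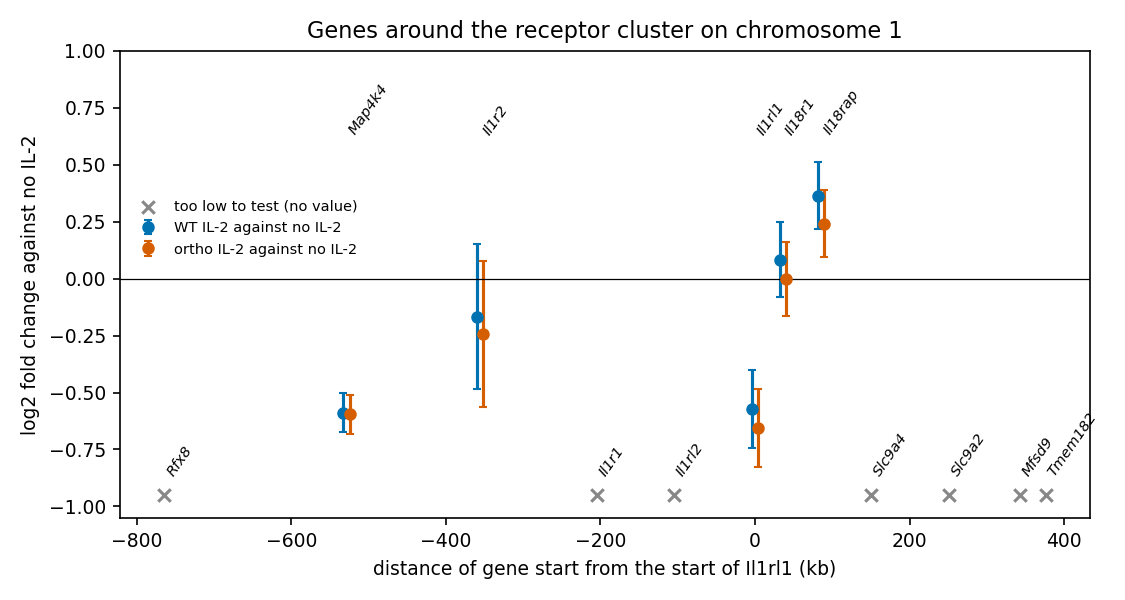
Log2 fold change against no IL-2 (vertical axis, 95% intervals as bars) of tested genes by the distance of their start from that of Il1rl1 in kb (horizontal axis), with crosses for genes too low to test. Map4k4 and Il1rl1 lie below 0 (-0.59 and -0.57 with WT IL-2), Il18r1 at about 0 and Il18rap above it.

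Ligands of these receptors had few reads in the Tregs. Of 11 ligand and antagonist genes in the tables, 1 was tested. Il33 had 9 to 31 and Il18 3 to 14 reads per library, and Il1b had 0 reads in all libraries. The tested gene, Il18bp, encodes a secreted protein that binds and blocks IL-18. It rose from 0.804 ± 0.0732 to 2.26 ± 0.213 RPKM with WT IL-2 and to 2.61 ± 0.107 with ortho IL-2 (SD, n = 3; log2 fold changes 1.28 and 1.43, edgeR adjusted p = 7.77e-06 and 3.42e-06) from a low level of 34 to 57 reads. It passed the filter only through the stimulated groups, in which it was high, and so its change supports nothing about the list. Sigirr, an inhibitory receptor of the family, was the 1 of 4 other receptors tested and was not called (0.00 and 0.10, adjusted p = 0.984 and 0.297); it was called lower with GC offsets and, with ortho IL-2, higher on the RPKM divisor.

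The shared proximal signalling genes gave 6 higher, 3 lower and 5 not called of 14 tested with WT IL-2, and 6, 4 and 4 with ortho IL-2. Of the list 64.3% and 71.4% were called, against 47.9% and 56% of all tested genes, with median log2 fold changes of 0.12 and 0.10 against 0.01 over all genes. Myd88, the adaptor of these receptors, rose by 0.44 and 0.52 on the log2 scale, and Traf6, the ubiquitin ligase downstream of it, by 0.50 and 0.47. Irak3, an inhibitory member of the IRAK kinases, fell by 1.03 and 1.06, and Irak2 fell by 0.49 and 0.50. On the RPKM divisor Irak2 was at -0.28 and -0.22, Myd88 at 0.80 and Traf6 at 0.75 with ortho IL-2, and the list gave 7 higher and 3 lower for WT IL-2 and 9 and 3 for ortho IL-2. With the adjustment for reads outside genes the list gave 2 and 2, and 2 and 1, and Irak2 with ortho IL-2 no longer passed. Irak3 was at -0.55 and -0.53 with limma on log2(RPKM + 1).

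The NF-kappaB and MAP kinase genes gave 3 higher, 10 lower and 10 not called of 23 with WT IL-2, and 4, 9 and 10 with ortho IL-2. The share called was 56.5% in each comparison, against 47.9% and 56% of all tested genes. Nfkbiz, a nuclear regulator of NF-kappaB targets, rose by 1.29 and 1.25, and Mapkapk2, a kinase activated by p38, by 0.76 and 0.75. Tnfaip3, the deubiquitinase A20 that restrains NF-kappaB, fell by 0.95 and 0.93, and Map2k6, an activator of p38, fell by 0.78 and 0.73, the last at -0.45 on the RPKM divisor and not passing with the adjustment for reads outside genes. The median of this list was -0.11 with WT IL-2 and turned to 0.11 on the RPKM divisor, where 6 were higher and 2 lower (8 and 2 for ortho IL-2), so the balance of rises and falls depends on the scaling. With the adjustment for reads outside genes 2 were higher and 2 lower, and 2 and 1.

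Of 18 transcription factors known to act on the ST2 or IL-18 receptor genes, 16 were tested, and each cytokine gave 6 higher and 5 lower, or 68.8% called against 47.9% and 56% of all tested genes. Tbx21, 1 of those higher, passed the filter only through the ortho IL-2 group, at 1.01 to 1.21 RPKM, so its being called there supports nothing. On the RPKM divisor this list gave 10 higher and 2 lower for WT IL-2 and 11 and 2 for ortho IL-2, and with the adjustment for reads outside genes 1 and 4, and 1 and 2. Nfil3 rose by 0.80 and 0.81, and Stat5b fell by 0.67 and 0.63 (-0.45 and -0.35 on the RPKM divisor). Rora fell by 0.55 and 0.59 (-0.33 and -0.31 on the RPKM divisor). Stat4 fell by 0.37 and 0.39, a change not called on the RPKM divisor nor, with ortho IL-2, with the adjustment for reads outside genes.

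Of 21 genes often found with ST2 in tissue Tregs, 18 were tested and gave 7 higher and 7 lower with WT IL-2 and 8 and 7 with ortho IL-2, which is 77.8% and 83.3% called against 47.9% and 56% of all tested genes. Il10, 1 of those lower, passed the filter through the libraries without IL-2, at 1.12 to 1.28 RPKM, where it was high, so its being called supports nothing. Gata3, Nfil3, Batf, Rora and Irf4 are also among the tested transcription factors above, so the shares of these lists are not separate. Earlier results of these data were known when the genes were listed, so the share is a description only. The tissue Treg list gave 10 and 4, and 11 and 4 on the RPKM divisor, and 5 and 5, and 5 and 4 with the adjustment for reads outside genes. Il2ra, the alpha chain of the IL-2 receptor, rose by 2.04 and 1.99, the cytotoxic protease gene Gzmb by 3.07 and 3.11 and the costimulatory receptor gene Tnfrsf9 by 1.81 and 1.83. The integrin gene Itgae fell by 0.82 with each (-0.60 and -0.54 on the RPKM divisor). Areg, Klrg1 and Pparg, which mark tissue Tregs, were too low to test, at 6 to 18, 20 to 66 and 5 to 25 reads per library.

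Of 6 tested inflammasome genes, 1 was higher and 1 lower with WT IL-2, and 1 and 2 with ortho IL-2, a share called of 33.3% and 50% against 47.9% and 56% of all tested genes. On the RPKM divisor 2 were higher and 1 lower, and 3 and 1, and with the adjustment for reads outside genes the 1 call left was that of Aim2 with WT IL-2. Aim2 fell by 0.49 and 0.51 (-0.28 and -0.24 on the RPKM divisor), the ortho IL-2 value not passing with the adjustment for reads outside genes. Casp1, which processes IL-1 and IL-18, gave -0.27 and -0.32 (adjusted p = 0.0651 and 0.0294). With ortho IL-2 Casp1 was not called on the RPKM divisor (-0.04), with GC offsets (-0.10) or with the adjustment for reads outside genes (adjusted p = 0.244). Casp4 gave 0.24 and 0.16 (adjusted p = 0.0183 and 0.0765). With that adjustment Casp4 was not called for WT IL-2 (adjusted p = 0.0658), while for ortho IL-2 it was called higher on the RPKM divisor (0.44) and with GC offsets (0.35). Gsdmd gave 0.13 and 0.24 (adjusted p = 0.22 and 0.0311). With ortho IL-2 Gsdmd was not called with GC offsets (0.10) or with the adjustment for reads outside genes (0.08), and with WT IL-2 it was called on the RPKM divisor (0.34).

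The genes whose profile over the 9 libraries was most like that of Il1rl1, by the root mean square difference of centred log2 CPM, were March7, Rfx3 and Nr3c1, at 0.0288, 0.0292 and 0.0296 against a median of 0.338 over tested genes. Those most like Il18rap were Aida, Usp6nl and Zzz3, at 0.0344, 0.0349 and 0.0412 against 0.227. The genes named for each receptor gene were picked for the smallest difference among all tested genes. Their lying below the median was therefore fixed by the choice and is a description only.

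**Figure D5:**
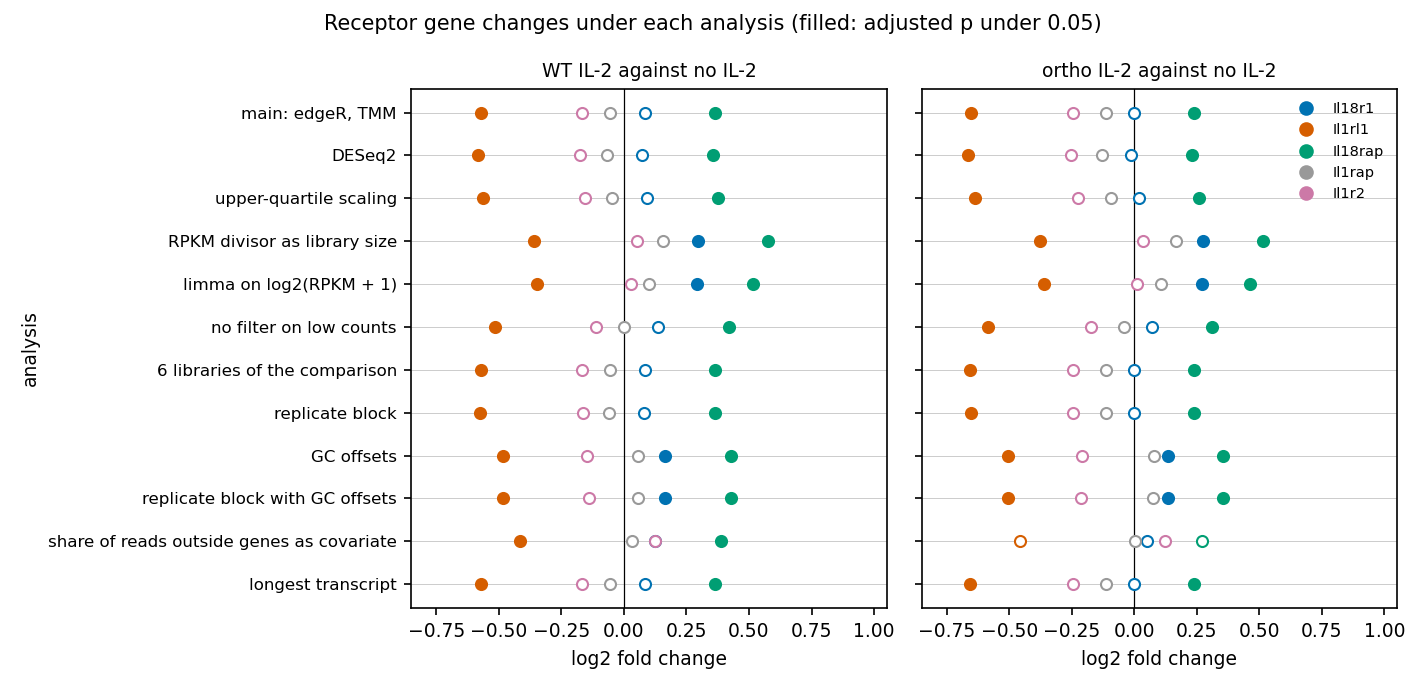
Log2 fold change (horizontal axis) of the 5 tested receptor genes under each analysis (vertical axis), for WT IL-2 and ortho IL-2 against no IL-2, with filled points where the adjusted p is under 0.05. Il1rl1 stays below 0 and Il18rap above 0 in all analyses shown, while Il18r1 is filled in 4 of them.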

How the data were processed

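The authors deposited, per the file headers, raw read counts and RPKM for 31682 RefSeq transcript rows in each of 9 tables. The submitters' processing notes name edgeR, bedtools 2.25.0, SAMtools 0.1.8, TopHat2 and Bowtie2, with the mm10 build. Which tool did what, the counter, the annotation release and strand use: not given in the sources used here. RPKM equals reads divided by row length and by 1 whole number per library, here called the RPKM divisor. For 4343 symbols with several rows, the row with most reads was taken.

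The test was edgeR's quasi-likelihood test (edgeR 4.0.16, R 4.3.3) on TMM-scaled counts, two-sided, with group means fitted over all 9 libraries and Benjamini-Hochberg adjustment over 10702 genes, called at 0.05. SE and 95% intervals come from the F statistic. Alternatives were DESeq2 1.42.0, limma 3.58.1 on log2(RPKM + 1), other scalings, filters, covariates and transcript rows, a replicate block and leaving out each library, 26 in all. The fit was tested on simulated counts. GC content was matched for 99.6% of genes. Correlations of deviations between same-numbered libraries were -0.659 to 0.439, with 3 of 9 above 0.1, which does not settle whether these libraries pair. The receptor genes and lists were chosen with earlier results of these data known, so a list's share called above that of all genes is a description only. From each list, up to 4 tested genes with the smallest p against no IL-2 were named.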

Additional observations from a re-analysis of the deposited data

How the results depend on the processing

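Il1rl1 fell and Il18rap rose under all alternatives run, and both were called under all but 1, the adjustment for reads outside genes. There the ortho IL-2 values were -0.46 for Il1rl1 and 0.27 for Il18rap and neither passed, leaving 0 receptor genes called higher by edgeR and 0 lower. The WT IL-2 values there were -0.41 and 0.39 and passed narrowly (edgeR adjusted p = 0.0439 and 0.0496). The cause was not tested. That adjustment called 1217 genes higher and 913 lower with WT IL-2, against 2675 and 2447, and 925 and 648 with ortho IL-2, against 3054 and 2936. Il18r1 was called higher on the RPKM divisor (0.30 for WT IL-2, 0.27 for ortho IL-2), with limma on log2(RPKM + 1) (0.29 and 0.27), with GC offsets (0.16 and 0.14) and with GC offsets and a replicate block (0.16 and 0.14), which made 2 receptor genes higher in each comparison; with ortho IL-2 this turned its direction. Leaving out each library in turn gave -0.63 to -0.49 and -0.69 to -0.60 for Il1rl1, 0.32 to 0.41 and 0.22 to 0.28 for Il18rap, 0.04 to 0.14 and -0.06 to 0.04 for Il18r1, and -0.12 to 0.04 and -0.14 to -0.08 for Il1rap, with WT and ortho IL-2. For Il1r2 it gave -0.22 to -0.12 and -0.40 to -0.15, the last range reaching a call, with 2 genes lower, without ortho IL-2 replicate 1. With a replicate block alone Il1rl1 was at -0.66 and Il18rap at 0.24 with ortho IL-2, and no call changed. Depth limits Il1r1 and Il1r2.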
